A study of Mus musculus with 51 samples.

Results

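Ribosomal protein genes encode the proteins of the large (Rpl) and small (Rps) subunit of the cytoplasmic ribosome. The set comprised the autosomal protein-coding genes of the mouse mm10 annotation with an Rpl or Rps symbol followed by a digit, or named Rplp0, Rplp1, Rplp2 or Rpsa, without the Rps6k kinases and without symbols ending in l or ps. That rule kept 83 of 20807 autosomal protein-coding genes. By name, 73 of them were ribosomal proteins, 43 of the large and 30 of the small subunit. The other 10 only carried a related name (Rps19bp1, Rpl7l1, Rpl22l1, Rps27rt, Rpl10-ps3, Rpl36-ps4, Rpl36a-ps1, Rpl9-ps1, Rpl9-ps6 and Rps12-ps3), and 6 of these are annotated copies whose symbol ends in ps and a digit. A promoter was taken as 1000 bp either side of each annotated transcription start, and its value in a table was that of the deposited region overlapping it.

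All ribosomal proteins are needed in near-equal amounts, and their genes are among the most active promoters of growing cells, germ cells included. Many of their transcripts begin with a run of pyrimidines, the 5′ terminal oligopyrimidine or TOP motif, through which nutrient signalling controls their translation. PRDM9 is a histone methyltransferase that chooses the sites of meiotic recombination through its DNA-binding zinc fingers. HELLS is a chromatin remodeller, SPO11 cuts the DNA at the chosen sites, and DMC1 is the recombinase that coats the resulting single strands, so that a DMC1 peak marks a break. In mice without PRDM9 the breaks are known to form at promoters and other sites with H3K4me3.

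Chromatin was read in germ cells enriched from males 12 to 14 days old, per the labels by enzymatic disaggregation of the testis. ATAC-seq, which measures open DNA by transposase insertion, covered C57BL/6J (B6, n = 2), B6-Prdm9CAST-KI (KI, a B6 strain whose Prdm9 carries the CAST allele, n = 2), Hells wt (n = 2), Hells CKO (n = 3) and (B6xCAST) F1 hybrids (n = 2). H3K9ac ChIP-seq after MNase digestion was done for 3 B6, 2 KI, 1 Spo11/Spo11 and 1 F1 sample. The H3K4me3 samples were 3 of Hells CKO, 1 of Hells wt, 2 of Spo11/Spo11 and 1 of Spo11/+. HELLS ChIP of sonicated KI testis of 12 to 14 days (n = 2) came with 1 IgG library and 1 input, and DMC1 ChIP of sonicated testis of 6 weeks came as 1 list of positions for Hells het and 1 for Hells CKO, 2 libraries each. The driver of the conditional Hells deletion is not given in the sources used here, no transcript level checks the loss of Hells, and the labels do not tie replicates to different animals. Each p-value thus reflects the scatter of these samples, which may be technical.

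Total counts in regions ran from 27952728 to 34572929 in the B6 and KI ATAC libraries, from 6416704 to 11352108 in the Hells ATAC libraries, from 13195275 to 30233934 for H3K9ac and from 13321006 to 42007820 for H3K4me3. Library series, the first part of a library's name, followed the strain in the ATAC comparison of KI with B6 and in the H3K9ac comparisons, so that series and strain cannot be told apart there. All 8 germ cell markers had a promoter region in each of the 4 tables. Blood markers had one at 0 of 5 in the B6 and KI ATAC table, 2 of 5 in the Hells ATAC table (summed levels of 91.3 to 104 CPM, counts scaled to the library's size), 2 of 5 in the H3K9ac table (2.06 to 9.38 CPM) and 1 of 5 in the H3K4me3 table (1.37 to 2.48 CPM). Sertoli cell markers were not absent: 7 of 7 had an H3K4me3 region, with summed levels of 326 to 393 CPM in the 4 libraries other than Hells CKO. In B6 H3K9ac they summed to 354 to 455 CPM, and the germ cell markers to 221 to 280 CPM. Peritubular, stromal and endothelial markers had a region at 6 of 6 for H3K9ac (134.8 to 197 CPM) and for H3K4me3 (181.5 to 242.5 CPM). In bulk samples, fewer cells of a type and less signal per cell cannot be told apart.

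Pyrimidine runs at the RefSeq start were more frequent among ribosomal protein promoters than among promoters at large, though most members had none there. Runs that ended more than 2 bases from that start were not counted, so these shares depend on where the start is annotated. RefSeq windows of 300 bases, from 250 before to 50 after the start, matched 57 of the 83 genes and 15687 autosomal protein-coding symbols. A run of 5 or more pyrimidines with a C within 2 bases of the start was present in 23 of the 57 (40.4%) against 18.8% of all windows. A run of 8 or more was present in 17 (29.8%) against 6.09%, and in 4 of 12 other translation genes with a TOP motif (33.3%). The median run had 3 bases among members and 2 among all windows. The letters CTTTCC within 10 bases of the start stood in 8 (14.0%) against 0.87%, and all 8 are included among the 10 windows with the shorter CTTTC (17.5% against 2.27%).

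The 8 windows below are not the 8 with CTTTCC. They are shown because they carry long pyrimidine runs (in capitals) in promoters that also lay under a DMC1 peak in the Hells CKO. Each holds the 40 bases before the RefSeq start and the 25 from it on, 5′ to 3′ on the gene's strand, in build GRCm38.p6. They are Rpl7a (chr2:26910767-26910831, plus strand), Rpl27a (chr7:109519155-109519219, plus), Rpl15 (chr14:18270962-18271026, minus), Rpl35 (chr2:39005107-39005171, minus), Rpl28 (chr7:4792925-4792989, plus), Rps18 (chr17:33955641-33955705, minus), Rps6 (chr4:86857343-86857407, minus) and Rps9 (chr7:3704001-3704065, plus). Rpl7a, Rps18 and Rps6 also had a HELLS peak. The RefSeq start of Rpl15 lay 405 bp, and that of Rps18 336 bp, from the 5′ end of the GENCODE gene, against 43 bp for Rpl7a and 45 bp for Rps6.
Rpl7a: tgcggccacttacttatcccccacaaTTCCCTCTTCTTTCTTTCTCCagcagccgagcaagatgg
Rpl27a: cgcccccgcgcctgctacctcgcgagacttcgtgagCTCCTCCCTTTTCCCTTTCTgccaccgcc
Rpl15: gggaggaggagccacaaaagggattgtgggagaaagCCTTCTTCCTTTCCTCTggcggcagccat
Rpl35: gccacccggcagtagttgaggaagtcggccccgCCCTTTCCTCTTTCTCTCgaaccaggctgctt
Rpl28: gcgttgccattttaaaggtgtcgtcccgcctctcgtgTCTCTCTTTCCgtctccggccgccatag
Rps18: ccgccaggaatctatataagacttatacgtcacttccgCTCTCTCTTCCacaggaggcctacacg
Rps6: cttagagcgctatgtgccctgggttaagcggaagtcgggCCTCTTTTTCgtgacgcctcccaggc
Rps9: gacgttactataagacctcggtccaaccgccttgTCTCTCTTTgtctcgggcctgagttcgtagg

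The run of Rpl7a was the longest, with 21 bases. The next 3 windows are shown for contrast: Rpl34 (chr3:130730374-130730438, minus), whose run had 6 bases, and Rpl4 (chr9:64173347-64173411, plus) were the only members under a DMC1 peak in both lists, and Rpsa (chr9:120127726-120127790, plus), with no such run, differed between alleles in the F1. In the Rpl4 and Rpsa windows the capitals are absent because no run of 5 or more touched the start. The Rpl4 window does hold a pyrimidine run shortly before the start, which was not counted.
Rpl34: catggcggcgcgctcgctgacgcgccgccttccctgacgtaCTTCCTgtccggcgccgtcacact
Rpl4: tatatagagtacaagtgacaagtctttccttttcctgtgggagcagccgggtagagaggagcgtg
Rpsa: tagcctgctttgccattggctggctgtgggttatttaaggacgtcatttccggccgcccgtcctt

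Upstream, the letters GGAAG or CTTCC, the core of the ETS family's motif on either strand, stood in 53 of 57 windows (93.0%) against 71.9% of all. The longer CCGGAAG or CTTCCGG, which contains that core, stood in 22 (38.6%) against 12.6%. GGGCGG or CCGCCC, the core of the SP1 motif, stood in 34 (59.7%) against 48.8%. AAGATGG or CCATCTT, the core of the YY1 motif, stood in 9 (15.8%) against 6.42%. Mitochondrial ribosomal proteins, encoded in the nucleus, had similar shares of these last and of the longer ETS letters, with the YY1 core in 13 of 69 (18.8%) and CCGGAAG or CTTCCGG in 24 (34.8%). TATAA on the gene's strand between 40 and 15 bases before the start stood in 5 (8.77%) against 4.53%. The windows had a median GC content of 59.0% against 57.3% and a median of 22 CG dinucleotides against 15. A match to these letters is a description and no site of binding. The Rps18 window from 250 bases before to 30 after its RefSeq start (chr17:33955636-33955915, minus strand), which lay under a HELLS peak, is shown with its 7 copies of GGAAG or CTTCC in capitals.
Rps18, upstream: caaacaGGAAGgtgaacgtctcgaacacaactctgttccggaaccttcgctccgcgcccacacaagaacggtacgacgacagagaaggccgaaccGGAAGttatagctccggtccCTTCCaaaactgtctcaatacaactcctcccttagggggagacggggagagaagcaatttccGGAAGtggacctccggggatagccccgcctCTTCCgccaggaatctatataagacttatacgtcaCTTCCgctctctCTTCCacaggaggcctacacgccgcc

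The genes also differed from others in their layout. Small nucleolar RNA genes, whose products guide modification of ribosomal RNA and often sit in introns of ribosomal protein genes, lay inside 28 of the 83 (33.7%) against 2.03% of all autosomal protein-coding genes. Another coding gene started on the opposite strand within 1000 bp of 15 (18.1%) against 11.2%.

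Ribosomal protein promoters fell nearly all into 2 states of the germ cell chromatin map. The deposited segmentation divides the genome into 11 numbered states, of which states 1 and 2 together covered 3.02% of the autosomes. At the gene's 5′ end, 39 members were in state 1 and 36 in state 2, together 75 of 83 (90.4%) against 66.8% of all autosomal protein-coding genes. Among the 73 ribosomal proteins by name the count was 71 (97.3%), and among the 10 related names it was 4. By the state that covered most of the window 1000 bp either side, 74 of 83 (89.2%) were in state 1.

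A deposited region overlapped 70 member promoters in the B6 and KI ATAC table, 70 in the Hells ATAC table, 70 in the H3K9ac table and 73 in the H3K4me3 table, and all of these passed the filter on low counts. For 7 of the 73 ribosomal proteins by name no region of the 4 tables used here overlapped the promoter, among them Rpl41, Rps29, Rpl15, Rps21 and Rpl13a, and the nearest regions of the 7 lay 2.22 to 26.64 kb away. All 7 had a region in the F1 table. Rps21 was among the 3 members with the highest mean levels over the 3 F1 libraries. It stood at 89.8 and 76.3 CPM per kb of region in the 2 F1 ATAC libraries, against a median of 15.9 and 14.7 over 80 members. Rpl41, Rps29 and Rpl15 were also above these medians, and Rpl13a, at 13.6 and 11.4, was below them. The levels of these 7 genes outside the F1 are not analysed here. Rpl12 was missing from the H3K9ac table only.

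Where they were measured, ribosomal protein promoters lay in the upper part of all promoters, without being at its top. The median member level in ATAC was 30.5 and 22.3 CPM per kb in B6 replicates 1 and 2 and 24.6 and 24.3 in KI replicates 1 and 2, where the median over all autosomal protein-coding promoters was 19.6, 18.7, 17.1 and 16.3. Ranked among all promoters of each library, the median member stood at percentile 60.4 to 72.8 in these 4 libraries, at 66.1 to 71.4 in the 5 Hells ATAC libraries, at 67.1 to 78.5 in the 6 H3K9ac libraries and at 58.6 to 75.02 in the 7 H3K4me3 libraries. The 2 lowest H3K4me3 percentiles, 58.6 and 58.9, were those of Hells CKO replicate 2 and Hells wt, which share a library series. In the F1 table, with 80 members, it stood at 75.9 and 75.1 for ATAC and at 89.0 for H3K9ac.

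**Figure D1:**
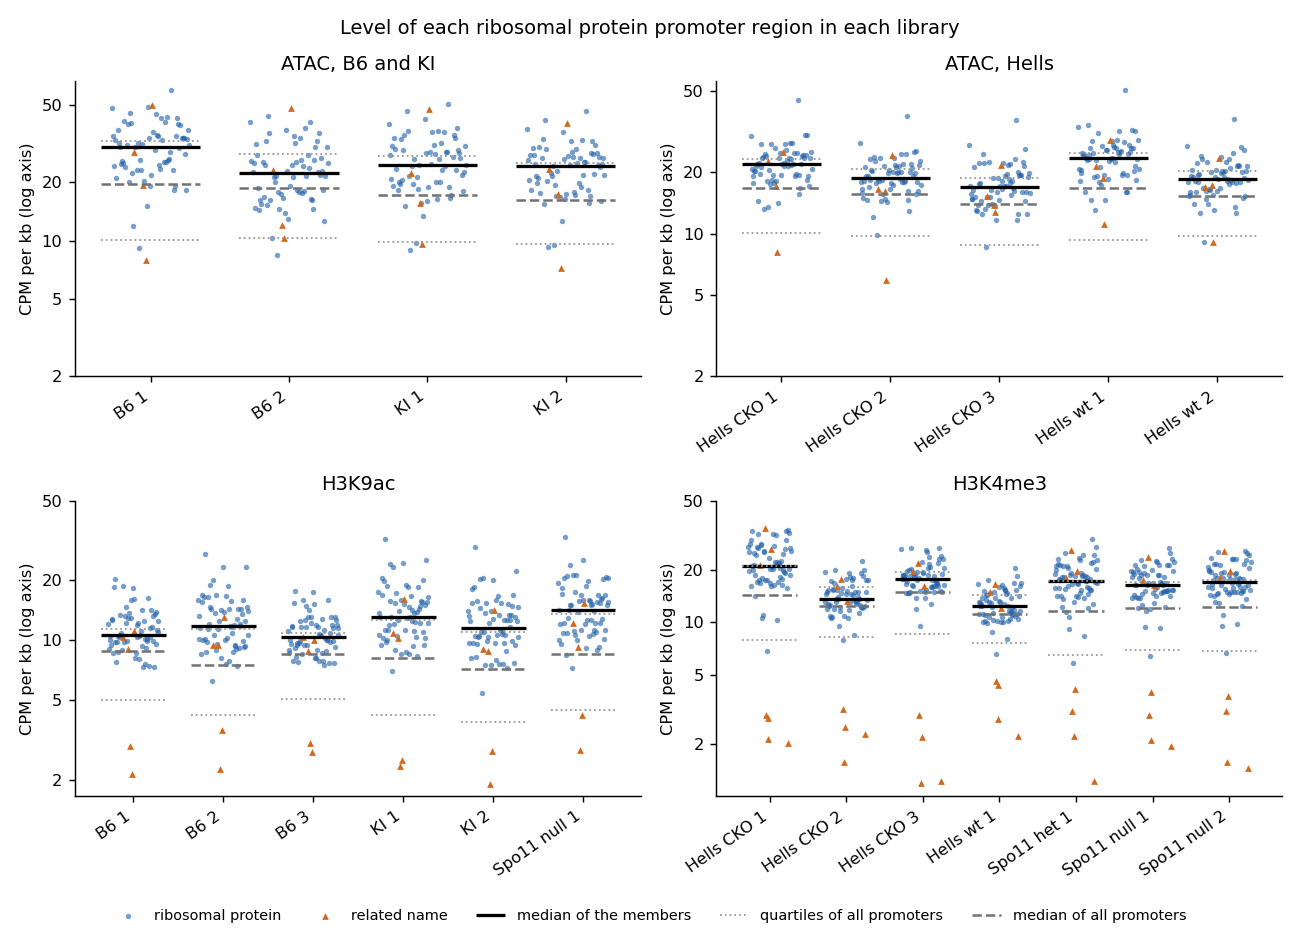
Level of every measured member in every library (CPM per kb of region, log axis), in 4 panels for the 2 ATAC tables, H3K9ac and H3K4me3. Blue dots are ribosomal proteins by name, orange triangles related names, the black bar the member median, and the dashed and dotted lines the median and quartiles of all promoters; the member median lies above the dashed line in each library.

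Members differed among themselves, and the order depended on what was measured. Rps19, a small subunit protein needed to mature 18S ribosomal RNA, had the highest ATAC level in both tables. It stood at 60.0 and 40.8 CPM per kb in B6, 51.0 and 46.8 in KI, 45.3, 37.7 and 35.9 in Hells CKO and 50.4 and 36.6 in Hells wt. These ranges overlap between B6 and KI and between Hells CKO and wt. Rpl22l1, the paralog of Rpl22, was next in the first table, at 50.2 and 48.3 in B6 and 47.6 and 40.7 in KI, so its range overlapped that of Rps19. Rpl7, with 30.1, 27.9 and 27.3 in Hells CKO, was the next in the second.

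H3K9ac was highest at Rpl19, a large subunit protein. Its level was 20.2, 27.2 and 17.6 CPM per kb in B6, 32.3 and 29.4 in KI and 33.0 in Spo11/Spo11, with both KI libraries and the Spo11/Spo11 library above the 3 of B6. H3K4me3 was highest at Rplp2, an acidic protein of the ribosomal stalk. It stood at 26.9 and 25.9 in Spo11/Spo11, 30.2 in Spo11/+, 20.6 in Hells wt and 33.4, 22.6 and 26.95 in Hells CKO, so the wt library was the lowest and the CKO libraries overlapped those of Spo11/Spo11 and Spo11/+. Rplp2 was near the middle of members in H3K9ac, at 9.90, 9.96 and 9.88 in B6. The lowest levels belonged to related names: Rpl36-ps4 had 2.96, 2.26 and 3.06 in B6, 2.35 and 1.90 in KI and 2.82 in Spo11/Spo11. Among ribosomal proteins by name, Rpl3, a core protein of the large subunit, was low in H3K9ac with 8.98, 6.23 and 8.56 in B6.

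Across genes, the levels of the 2 ATAC tables went together, with Pearson's r 0.79 and Spearman's rho 0.77 over 66 members. H3K9ac and H3K4me3 had r 0.44 and rho 0.51 over 65. ATAC and H3K9ac were only weakly related, with r 0.22 and rho 0.21 over 65 in the B6 and KI table. These are descriptions across genes, which share libraries and, for ATAC and H3K9ac, B6 and KI strains, and genes are not independent replicates.

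DMC1 peaks lay at most ribosomal protein promoters in the Hells CKO testis and at almost none in the heterozygote. In the Hells CKO list 61 of 83 promoters (73.5%, exact 95% binomial interval 62.7 to 82.6) overlapped a peak, against 8436 of 20807 autosomal protein-coding genes (40.5%). In the Hells het list the count was 2 of 83 (2.41%, 0.293 to 8.44) against 1447 (6.95%). Both of the 2 het promoters, those of Rpl34 and Rpl4, also had a CKO peak, whereas over all genes 1013 of the 1447 did. With 1 list per genotype there is no replicate, the depth behind the lists is unknown, and the difference between genotypes has no replicate check.

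By subunit, the CKO share was 34 of 43 large and 25 of 30 small subunit genes, or 59 of 73 ribosomal proteins by name (80.8%, 69.9 to 89.1), and it was 2 of 10 among the related names. The 14 ribosomal proteins without a CKO peak were Rps26, Rpl26, Rpl23a, Rpl27, Rps10, Rpl12, Rps21, Rpl11, Rpl6, Rpl18, Rps3, Rpl29, Rpsa and Rpl14. Mitochondrial ribosomal proteins, which serve the separate ribosome of that organelle, had a CKO peak at 53 of 78 promoters. Ribosome biogenesis factors had one at 30 of 33, and subunits and transcription factors of RNA polymerase I at 11 of 15. Of the 4 X-linked ribosomal protein genes, 3 had a peak in each of the DMC1 lists and 0 had a HELLS peak. Germ cell markers had CKO peaks at 8 of 8 promoters, Sertoli markers at 0 of 7.

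**Figure D2:**
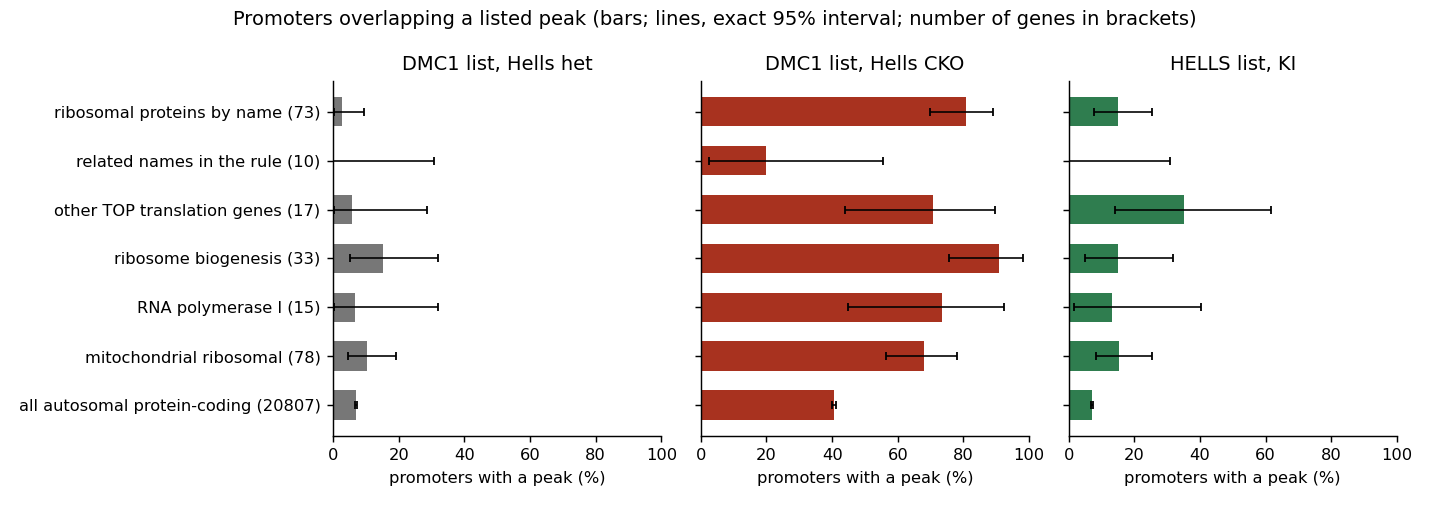
Share of promoters with a peak (percent, bars from 0, exact 95% binomial interval) in the Hells het DMC1, Hells CKO DMC1 and HELLS lists, for 7 gene sets. The CKO bar reaches 80.8% for ribosomal proteins by name and 40.5% for all autosomal protein-coding genes, and the het bar stays at 2.74% for the former.

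The CKO peaks covered the promoter as those of other genes did. Their median width was 2439 bp at the 61 members against 2492 bp at all promoters with a peak, and the median of their midpoints lay 71.5 bp downstream of the nearest start against 68 bp. Midpoints lay downstream at 38 of the 61. Rpl34, a large subunit protein, carried a peak of all 3 lists: a het peak at chr3:130729893-130730692, a CKO peak at chr3:130728156-130731936 and a HELLS peak at chr3:130730064-130730544, with midpoints 28, 275 and 17 bp downstream of its nearest start. The Rpl4 het peak (chr9:64173185-64176360) had its midpoint 1380 bp downstream and its CKO peak (chr9:64171608-64175505) 164 bp. Both genes were in the highest quintile of H3K4me3 among all promoters. Rpl34 stood at 22.7 and 23.2 CPM per kb in Spo11/Spo11, 23.6 in Spo11/+, 16.5 in Hells wt and 32.3, 19.3 and 26.1 in Hells CKO. Rpl4 stood at 23.04 and 24.6, 27.05, 14.1 and 32.9, 14.9 and 18.9 in the same order. In both, the wt library and CKO replicate 2, of 1 library series, were the lowest.

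The CKO share was read beside the promoters' level, since it rose with H3K4me3 over all promoters. By quintiles of the mean H3K4me3 level in the libraries with intact Hells, 12.3%, 29.98%, 57.9%, 76.9% and 86.1% of all promoters had a CKO peak. Members had 1 of 5, 1 of 2, 13 of 18, 22 of 26 and 18 of 22. All promoters weighted to the members' quintiles would give 69.3%, against 55 of 73 members (75.3%). The same weighting gave 70.5% by H3K9ac in B6 and 69.5% by ATAC in Hells CKO, each against 55 of 70 (78.6%). For the het list the weighted share was 10.6% against 2 of 73 (2.74%). Among genes starting in state 1, 31 of 39 members (79.5%) and 60.8% of all had a CKO peak, and in state 2 28 of 36 (77.8%) and 52.2%. The 55 members with a CKO peak had a higher median H3K4me3 level than the 18 without in each of the 7 libraries, for example 18.2 against 14.98 CPM per kb in Spo11/+ and 21.7 against 18.8 in Hells CKO replicate 1. Their median ATAC level was also above that of the 15 without in each B6, KI and Hells library but Hells CKO replicate 1, where both were 21.9. In KI replicate 1 it was 26.6 against 22.6. H3K9ac was higher with a peak in each B6, KI and Spo11/Spo11 library but B6 replicate 3 (10.1 against 10.7). The members without a peak included low related names. The 12 ribosomal proteins by name without a peak had more H3K9ac than the 55 members in each B6 library and Spo11/Spo11. Medians were 12.85 against 11.9 in B6 replicate 2 and 15.3 against 14.2 in Spo11/Spo11. In both KI libraries they had less. By name, ATAC without a peak was above in both Hells wt libraries (24.5 against 23.55 and 19.02 against 18.6) and in no other. H3K4me3 stayed below in each library.

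**Figure D3:**
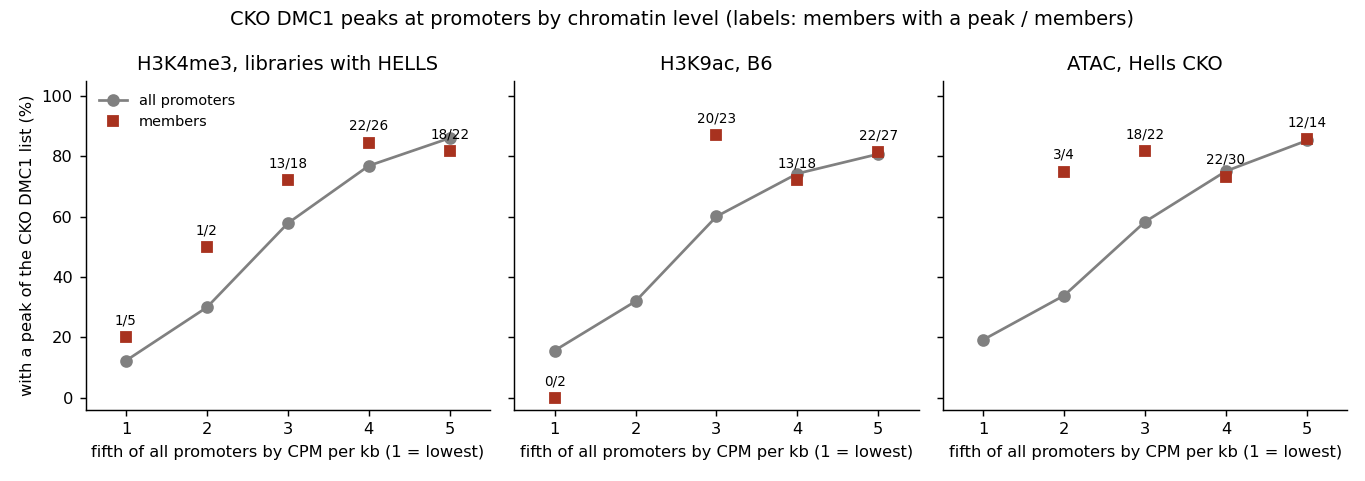
Share of promoters with a Hells CKO DMC1 peak (percent) by quintile of the promoter's level, in 3 panels for H3K4me3, H3K9ac and ATAC, for all promoters and for members. With H3K4me3 the share over all promoters goes from 12.3% in the lowest quintile to 86.1% in the highest, and 66 of the 73 members sit in the 3 upper quintiles.

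HELLS itself was listed at 11 ribosomal protein promoters, among them Rps7, Rps2, Rpl10a, Rps18, Rpl7a, Rpl34, Rps6, Rpl5, Rps19 and Rpl29. That was 13.3% of 83 (6.81 to 22.5) against 1475 of 20807 (7.09%), and 15.1% of the 73 with an H3K4me3 region against 13.7% of all promoters weighted to their H3K4me3. Of the 11, 10 had a CKO DMC1 peak (90.9%), the exception being Rpl29, against 1199 of the 1475 genes with a HELLS peak (81.3%) and 49 of the 62 ribosomal proteins by name without one (79.0%). Only Rpl34 of the 11 had a het peak. The members' HELLS peaks had a median width of 675 bp, against 577 bp at all promoters with one. Over the whole list the median counts per region were 59 and 50 in the HELLS libraries, 9 in IgG and 16 in input, with no library totals by which to scale them. Rpl10a, with 81 and 84 HELLS counts against 14 in IgG and 31 in input, was the highest of the 11 in both HELLS libraries. Rps18 had 58 and 44 against 3 and 16, and Rpl7a, with 43 and 32 against 13 and 13, was below the list's median in both HELLS libraries.

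The comparison of KI with B6 asks what the CAST allele of Prdm9 changes, and 1 ribosomal protein promoter passed the test in it. It was called for H3K9ac, higher in KI, as 1 of 70 members tested, where 1.97% of promoters and 12.3% of all regions were called in either direction (edgeR's quasi-likelihood test). The call was lost without B6 replicate 1 and without B6 replicate 3. Over all regions, 7029 and 1987 were then called higher, against 11121 with all libraries. It was also lost without either KI library, but those fits leave 1 KI library and lost the calls of the whole table.

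Beyond that call, H3K9ac in KI sat higher on the median at members than at promoters in all, with no further call. The median log2 fold change of the 70 members was 0.15 (57 above 0) against -0.05 over all autosomal protein-coding promoters. Both KI libraries lay above all 3 of B6 at 20 members (28.6%) against 13% of promoters, and below them at 0 against 18.1%. Rpl30, a large subunit protein, had 54.2, 76.0 and 50.6 CPM in B6 and 97.4 and 81.5 in KI (0.57, SE 0.21, adjusted p = 0.187). Rpl4 had 83.1, 139 and 75.5 in B6 and 150 and 133 in KI, so that B6 replicate 2 lay between the KI libraries, and its log2 fold change of 0.52 had an adjusted p of 0.317. Rps6, the target of the S6 kinases, had 62.8, 96.9 and 60.4 in B6 against 96.0 and 86.5 in KI, so that B6 replicate 2 lay above both KI libraries. At the other end, Rps14, a small subunit protein, had 64.9, 40.8 and 61.1 in B6 and 43.1 and 37.8 in KI (-0.46, SE 0.23, adjusted p = 0.284).

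At these 4 genes B6 replicate 2 was the B6 library nearest to KI, and the calls depended on it. Without it 24 members were called higher and 5 lower, where 26360 of 91907 regions were called higher and 24586 lower. Without B6 replicate 1 or B6 replicate 3, 0 members were called. With all libraries DESeq2 called 2 members higher, where it called 13952 of 91909 regions higher and 1552 lower. Scaling by library size alone moved the median of all regions from -0.07 to -0.22 and that of the members from 0.15 to 0.0047. Germ cell markers lay the same way: their summed H3K9ac was 230, 280 and 221 CPM in B6, 313 and 305 in KI and 356 in Spo11/Spo11, with 8 of 8 markers measured. Leydig cell markers lay the other way along the same libraries, with 4 of 5 measured, a summed H3K9ac of 74.8, 43.3 and 83.1 CPM in B6, 44.9 and 40.6 in KI and 54.7 in Spo11/Spo11, and a median log2 fold change of -0.59 in KI with 0 of 4 above 0 and 0 called. B6 replicate 2 was again the B6 library nearest to KI. The part of either marker list in the members' median was not tested. Ribosome biogenesis factors had a median of 0.16 with 28 of 33 above 0, and mitochondrial ribosomal proteins 0.19 with 57 of 73. Subunits and transcription factors of RNA polymerase I had 0.07 with 10 of 15. Other translation genes with a TOP motif had 0.19 with 12 of 15. None of these 4 lists had a member called in either direction.

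ATAC at the members had no call. Between KI and B6, 0 of 70 members were called in either direction by edgeR, 0 had a p under 0.05 before adjustment and DESeq2 called 0, where 1.21% of promoters and 9.41% of all regions were called. The members' median was -0.10 (13 of 70 above 0) against -0.17 over all promoters. Every KI library lay below every B6 library at 10 members (14.3%) against 41.9% of promoters, and above at 1 (Rps10) against 5.92%. The largest differences were -0.30 at Rpl3, with 22.0 and 19.04 CPM in B6 and 16.3 and 16.9 in KI, and 0.14 at Rpl4. The 2 B6 libraries stood apart: without B6 replicate 1 the members' median was 0.11, and without B6 replicate 2 it was -0.34.

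**Figure D4:**
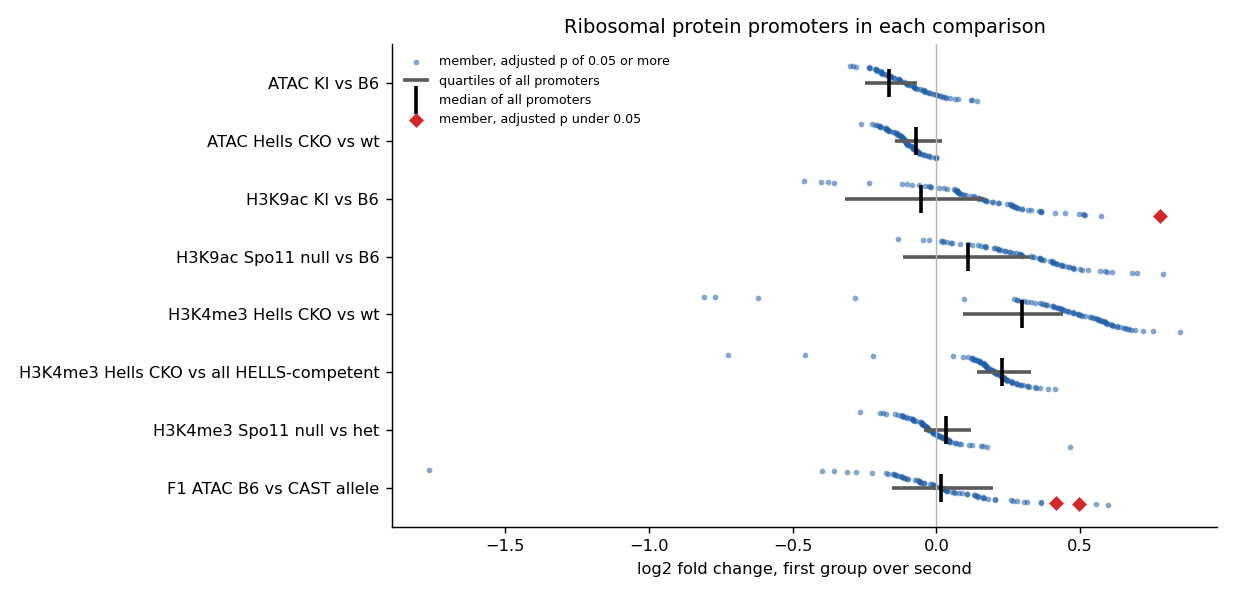
Log2 fold change of each member in each comparison (points), with the median and quartiles over all autosomal protein-coding promoters. The points of H3K9ac in KI lie around 0.15, and those of H3K4me3 in Hells CKO against wt around 0.49, while the ATAC comparisons lie around -0.10 and -0.11.

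The comparison of Hells CKO with wt asks what loss of the remodeller changes, and ATAC at ribosomal protein promoters had no call in it. Between Hells CKO and wt, 0 of 70 members were called by edgeR, 0 had a p under 0.05 before adjustment and DESeq2 called 0, where 0.0519% of promoters and 0.382% of all regions were called. The median was -0.11, with 0 of 70 above 0, against -0.07 over all promoters. Both wt libraries lay above all 3 CKO libraries at 2 members against 3.19% of promoters, and below them at 0 against 2.57%. Rps26, a small subunit protein, had the largest difference at -0.26, with 34.3, 30.5 and 27.6 CPM in CKO and 41.8 and 32.5 in wt, so the groups overlapped. Rps23 followed at -0.22, with 33.3, 28.7 and 20.4 against 37.0 and 27.6. Without wt replicate 1 the members' median was 0.06, and without wt replicate 2 it was -0.27. Summed germ cell markers were 317, 221 and 161 CPM in CKO and 342 and 216 in wt, and their part in the median was not tested.

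H3K4me3 at these promoters was higher on the median in Hells CKO than in the single Hells wt library, with no call. Of 73 members tested, edgeR called 0 in either direction, where it called 0.7% of promoters and 11.7% of all regions. In edgeR 10 members had a p under 0.05 before adjustment. DESeq2 called 13 members higher, where it called 1042 of 78959 regions higher and 7802 lower. The median log2 fold change was 0.49, against 0.30 over all promoters, and all 66 ribosomal proteins by name that were measured were above 0. Rps28, a small subunit protein, had 78.7, 37.3 and 53.0 CPM in CKO and 31.4 in wt (0.85, SE 0.36, adjusted p = 0.228). Rpl9 had 100.5, 56.4 and 75.1 in CKO and 46.0 in wt (0.75, adjusted p = 0.212). In each case CKO replicate 2, of the same library series as the wt library, lay closest to it. Within that series alone the members' median was 0.14 against 0.13 over all promoters. Without CKO replicate 2, members were called higher, as were more regions over the whole table. Scaling moved the median of all regions from -0.02 to 0.09 with RLE factors and to -0.17 with library size alone, and that of the members from 0.49 to 0.60 and 0.33.

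Set against all 4 libraries with intact Hells (wt, Spo11/+ and Spo11/Spo11, so that Spo11 genotype differs within them), the members' median was 0.20 against 0.23 over all promoters. edgeR called 0 of 73 in either direction, where it called 5.42% of promoters and 18.9% of all regions. In edgeR 4 members had a p under 0.05 before adjustment. DESeq2 called 2 members higher, where it called 3091 of 78959 regions higher and 12686 lower. All 3 CKO libraries lay above all 4 others at 2 members, Rps14 and Rpl3 (2.74%), against 20% of promoters. At Rpl3 the CKO libraries held 55.3, 43.0 and 53.3 CPM and the others 42.1, 41.4, 34.9 and 37.5 (0.41, adjusted p = 0.0867). They lay below all 4 at 1 member, against 1.7% of promoters: the annotated copy Rps12-ps3, with 2.46, 2.17 and 1.91 CPM in CKO against 3.29 to 3.83 in the others (-0.72, SE 0.24, adjusted p = 0.0558). Its sequence is nearly that of the Rps12 transcript. How reads that fit both were counted is not given in the sources used here, so this value is uncertain. The 5′ end of Rps12-ps3 was in state 1, but state 7 covered most of its promoter window, as at no other member. Of all autosomal protein-coding genes starting in state 7, 24 of 60 had a het DMC1 peak and 8 of 60 a CKO peak. Rps12-ps3 had neither. Whether its lower H3K4me3 goes with that state was not tested. Without CKO replicate 2, 19 members were called higher, where 5438 of 78959 regions were called higher and 13113 lower. Sertoli markers were higher in CKO: their summed H3K4me3 was 570, 425 and 625 CPM in CKO against 326 to 393 in the others, and 4 of 7 were called higher. Their part in the members' medians was not tested.

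Both Spo11 comparisons had an arm of 1 library, which was assumed to vary like the other groups of its table, and edgeR called no region of either table, so the absence of calls says little about the members. Between Spo11/Spo11 and Spo11/+ H3K4me3, edgeR called 0 of 73 members, 0 had a p under 0.05 before adjustment and DESeq2 called 0, where 0.0% of promoters were called, and the median was -0.03 against 0.03 over all promoters. For H3K9ac in the single Spo11/Spo11 library against B6, edgeR called 0 of 70, 15 had a p under 0.05 before adjustment and DESeq2 called 1 higher (Rpl14), where 0.0% of promoters were called by edgeR. The median was 0.33 against 0.11 over all promoters, and germ cell markers had a median of 0.52 and Leydig cell markers of -0.40. Rpl14 had 97.8 CPM against 59.6, 66.2 and 54.99 in B6 (0.70, adjusted p = 0.924). Without B6 replicate 2, members were called higher, and regions over the whole table were called in both directions. This comparison and that of KI share the B6 libraries.

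In the (B6xCAST) F1 both alleles of a promoter are read in the same nucleus, and at ribosomal protein promoters the alleles were close to even. Of 80 members with a region, 74 had at least 20 allele counts and were tested. The median log2 ratio of B6 to CAST ATAC counts was 0.01 against 0.02 over all promoters. The median B6 share over 77 members with counts was 50.1% and 50.7% in the ATAC libraries and 50.3% in H3K9ac. Where depth was highest the shares were tight: Rps21 had 1388 B6 and 1368 CAST counts in ATAC library 1 and Rpl21 943 and 936.

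Rpsa and Rpl37a passed the test, 2 of 74 and both toward B6, where 7.19% of promoters and 11.7% of all regions were called in either direction. The count depended on the settings. With at least 50 allele counts 6 members were called toward B6, where 5265 of 57559 regions were called toward B6 and 4636 toward CAST. With TMM over the allele columns it was 3 toward B6 and 2 toward CAST, where 4988 and 4871 of 69255 regions were called. With DESeq2 it was 1 toward B6, where 1622 and 1403 of 69255 regions were called. Rpsa, the laminin receptor and small subunit protein whose start window is printed above, had 784 B6 and 536 CAST counts in ATAC library 1 (59.4% B6) and 618 and 455 in library 2 (57.6%), a log2 ratio of 0.50 (SE 0.08, edgeR, adjusted p = 0.000153). Its H3K9ac was 424 and 312 (57.6%, 54.0 to 61.2). Both assays thus read more of the B6 allele there. Rpl37a, a large subunit protein, had 303 and 223 (57.6%) and 255 and 195 (56.7%), a log2 ratio of 0.42 (SE 0.11, adjusted p = 0.0193), and DESeq2 did not call it. Its H3K9ac, 311 and 279, was 52.7% B6, with an interval of 48.6 to 56.8 that includes even shares. Intervals cover counting error only.

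**Figure D5:**
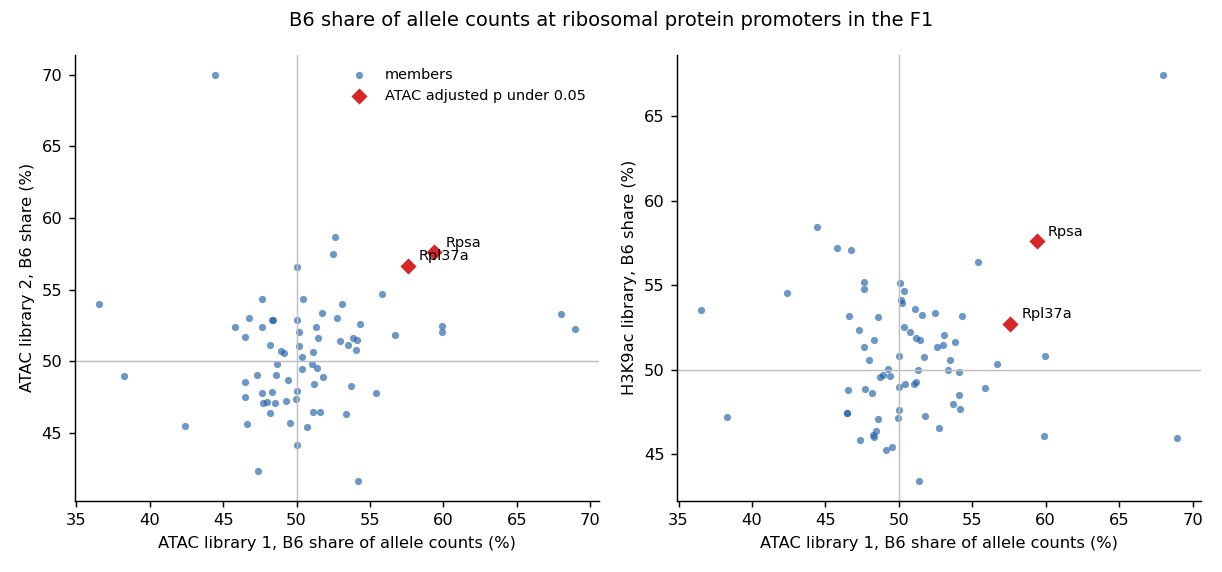
B6 share of allele counts (percent) at members with at least 20 allele counts, ATAC library 1 against ATAC library 2 and against H3K9ac. Most members lie near 50% on both axes, and Rpsa lies at 59.4%, 57.6% and 57.6%.

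Rpsa, Rplp0, Rps6, Rpl5, Rpl11, Rps19 and Rpl22, kept for their known roles, had no call outside the F1. Rpl5 and Rpl11 form a complex with 5S ribosomal RNA that restrains MDM2. Rpl5 had H3K9ac of 48.1, 56.4 and 44.4 CPM in B6 and 64.6 and 55.6 in KI (0.28, SE 0.15, edgeR, adjusted p = 0.31), and both a CKO DMC1 and a HELLS peak. Rpl11 had 45.5, 61.9 and 46.4 in B6 and 63.8 and 57.7 in KI (0.25, SE 0.17, adjusted p = 0.409), and neither peak. In both genes B6 replicate 2 lay within the range of, or above, a KI library. Rplp0, the core of the ribosomal stalk, had ATAC levels of 58.2 and 34.6 CPM in B6 and 45.6 and 38.1 in KI (-0.15, SE 0.22, adjusted p = 0.887), with both KI libraries between those of B6. Rpl22 had H3K4me3 of 69.0, 55.9 and 69.8 CPM in Hells CKO and 49.03 in wt (0.40, SE 0.23, adjusted p = 0.423).

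Genes of related function outside the rule were read in the same way. Rpl10l and Rpl39l are autosomal paralogs used in the testis in place of the X-linked Rpl10 and Rpl39. Rpl10l had H3K4me3 of 9.62 ± 2.94 CPM per kb in Hells CKO (SD, n = 3), 10.2 in wt and 13.2 ± 0.585 in Spo11/Spo11 (SD, n = 2), and Rpl10 had 11.5 ± 4.24, 5.84 and 11.3 ± 0.229. In H3K9ac Rpl10l stood at 4.85 ± 1.02 in B6 (SD, n = 3) and Rpl10 at 7.13 ± 1.03. CKO DMC1 peaks lay at 4 of 5 such paralogs outside the rule and HELLS peaks at 2 of 5. Of 3 ribosomal proteins without an Rpl or Rps symbol, Fau and Rack1 among them, 1 had a CKO peak, and the 2 with a region in the 4 tables were called in 0 of 8 comparisons.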

How the data were processed

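ATAC-seq, H3K9ac, H3K4me3 and HELLS values were read from region tables of raw counts, whole numbers per region and library that the authors deposited without normalization. F1 values were estimated counts per allele, deposited by the authors and rounded to whole numbers here. The DMC1 lists, the HELLS regions and the chromatin states were used as deposited positions. Per the submitters' processing notes the tools included CASAVA, BWA 0.7.15, Bowtie 0.12.9 and MACS 1.4.2, and the build was mm10. Which tool made which file, and how reads that map to several places were treated, is not given in the sources used here. No region ran past the end of an mm10 chromosome. Genes came from GENCODE M21 and sequences from RefSeq (GRCm38.p6), which matched 57 of 83 members.

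Samples were grouped by the strain and antibody in the labels. In the ATAC table with B6 and KI the column names give a strain but no sample number. The 10 value columns that matched no sample were left out, as were 56 repeated rows of the ATAC table with Hells CKO. Levels are CPM, counts scaled to library size times TMM factors, per kb of region. Each comparison was fitted over all regions of its table with edgeR 4.0.16 in R 4.3.3 (filterByExpr, TMM, quasi-likelihood test, Benjamini-Hochberg adjustment, threshold 0.05), and the F1 alleles were paired within a library with at least 20 allele counts. DESeq2 1.42.0, other scalings, filters, promoter widths and left-out libraries were alternatives. The scripts were tested on simulated data. For the F1 allele test, a first simulation with smaller changes and a wider spread between libraries recovered few of the changes, and a case with larger changes and the estimated spread was then added. Recovery of the smaller changes was partial and moved with the random draw, so a member not called in the F1 may still differ between alleles. Total counts ranged from 3125377 per F1 allele to 42007820, and over the 2675 HELLS regions from 27308 (IgG) to 185076 (HELLS). Shares have exact Clopper-Pearson 95% intervals.

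The members, lists and tests were chosen with earlier results of these data known. Named members were those past the threshold, those with the 3 largest and 3 smallest fold changes, the 3 highest and lowest levels, those under a peak or in no table, and Rpsa, Rplp0, Rps6, Rpl5, Rpl11, Rps19 and Rpl22. Results of some members that this rule names are not reported here. Rpl21 and Rpl10a were also named for their levels or counts.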

Additional observations from a re-analysis of the deposited data

How the results depend on the processing

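Counts of called members depended most on single libraries. With 1 library left out at a time, ATAC in KI against B6 gave 0 to 12 members higher and 0 to 36 lower, with medians from -0.34 to 0.11. H3K9ac in KI gave 0 to 24 higher, 0 to 5 lower and medians of 0.0396 to 0.24, and in Spo11/Spo11 0 to 30 higher. H3K4me3 in Hells CKO gave 0 to 19 members higher and 0 to 1 lower against all libraries with intact Hells. Over the whole table, 259 to 14142 of 78959 regions were then called higher and 11246 to 17194 lower. Against the single wt library, calls of higher regions also moved over the whole table. F1 medians were 0.0093 to 0.0393. DESeq2 called 2 members higher for H3K9ac in KI, 1 in Spo11/Spo11, 13 for H3K4me3 against wt, 2 against all libraries with intact Hells and 1 in the F1. Over all regions DESeq2 called 136 higher and 2 lower for H3K9ac in Spo11/Spo11, where edgeR called 0. Library size alone gave a median of 0.0047 for H3K9ac in KI and 1 member lower for H3K4me3 against all libraries with intact Hells, as did taking those as 1 group, an alternative chosen after seeing the data. The shared library series gave 0.14 for H3K4me3 against wt. In the F1, TMM over the allele columns gave 2 members lower and a median of -0.0089, where 4871 of 69255 regions were lower. At least 50 allele counts gave 6 members higher, where 5265 of 57559 regions were higher. A peak midpoint inside the promoter left 1 het DMC1 promoter, and the state over most of the promoter put 74 promoters in state 1. Without region width the median percentile was 64.4 in Hells ATAC and 84.3 in H3K9ac. The cause of these differences was not tested. Of the recomputed counts, medians and shares, 251 stayed within 1.5 times or the spread of the reported value and 33 did not. Among single genes 501 were unchanged, 28 passed the threshold only in an alternative, 5 lost it and 0 changed sign.

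The library series of Hells ATAC, shared by CKO and wt replicates 1 and 2, as a replicate block gave 0 members higher and 0 lower, with a median of -0.0352. In the whole table it gave 14 higher and 1197 lower, against 0 and 363 without the block. Depth limits what the F1 can show, with 74 of 80 members tested, and the DMC1 lists carry no depth and no replicate.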
